A study of Homo sapiens with 2 samples.

Results

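The genes described here encode extracellular proteases and the proteins that inhibit them. Members were taken by gene symbol, under a rule written with earlier results of these data known: matrix metalloproteinases, ADAM and ADAMTS genes, TIMPs and RECK, plasminogen and its activators, matriptase, hepsin, the TMPRSS, kallikrein and PRSS genes, HTRA1, the SPINT and SPINK inhibitors, serpins and cystatins. Of 23641 probe sets, 88 carried such a symbol, and they stood for 87 of the 13864 genes that could be named. The comparison was between 2 stable derivatives of PC3, an established human prostate cancer cell line from a bone metastasis, to see how gene expression differs where miR-95 is overexpressed. The line labelled miR-95 overexpressed that microRNA, and the line labelled miR control overexpressed a control microRNA. Both were grown in serum-containing medium, and total RNA of each was hybridised to an Affymetrix gene array. There is 1 array for each line, and the labels do not say whether a line was a clone or a pool. The values below therefore carry no replicate error and no p-value, and they describe these 2 arrays only.

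Extracellular proteases cut matrix proteins and release growth factors, cytokines and receptor ectodomains from the cell surface. Metalloproteinases hold a zinc ion in the active site and are blocked by TIMPs and by RECK. Serine proteases include plasmin, the kallikreins and the membrane-anchored proteases, while cystatins block cysteine proteases such as the cathepsins. In prostate tissue the kallikreins are androgen-regulated secretory products, and in carcinomas pericellular proteolysis is studied for its part in invasion.

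The mature sequences of miR-95 are shown because they define what was overexpressed. They are from RefSeq (GRCh38.p14), with the seed, bases 2 to 8 from the 5′ end, in capitals. The labels do not say which arm the construct was meant to raise.
hsa-miR-95-3p: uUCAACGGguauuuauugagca
hsa-miR-95-5p: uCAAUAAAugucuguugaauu
The first lies at chr4:8005312-8005333 and the second at chr4:8005347-8005367, both on the minus strand. A transcript site paired to the 3p seed reads CCGUUGA, and 1 of the 2370 mature human microRNAs in the RefSeq table, miR-95-3p itself, has that seed. No transcript sequences were used here, so whether any protease gene carries such a site was not examined. The level of miR-95 could not be checked either, as none of the named probe sets stood for it.

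Levels are log2 values as deposited. A difference is the log2 value in miR-95 cells less that in control cells, after each array was centred on its median over genes (7.495 in miR-95 cells, against 7.46 in control cells), which lowers a deposited difference by 0.035. A gene was called detected when it reached the median of its array on at least 1 array. By this rule 26 of the 87 genes were detected, 25 of them on both arrays. The other 61 were below detection. CST2 (7.43 in miR-95 cells, against 7.65 in control cells) passed the limit on the control array alone. Nearest above the limit on both arrays were ADAM8 (7.59 in miR-95 cells, against 7.54 in control cells) and KLK14 (7.58 in miR-95 cells, against 7.64 in control cells). Nearest below it were KLK11 (7.43 in miR-95 cells, against 7.37 in control cells) and CST6 (7.43 in miR-95 cells, against 7.17 in control cells). The labelled origin was checked against markers. All 5 measured epithelial markers (of 6 listed) were detected, and 3 measured genes of the prostate secretory program, KLK2, KLK3 and FOLH1, were below detection on both arrays. Of 13 markers of leukocytes, endothelium and fibroblasts, 5 were measured and 1 was detected, the endothelial receptor gene KDR (8.28 in miR-95 cells, against 7.96 in control cells). The fibroblast marker LUM, below detection on both, read 6.04 in miR-95 cells, against 7.33 in control cells, the lowest difference (-1.325) of all 13864 genes. The summed linear level of the 2 measured fibroblast markers was 72.6 in miR-95 cells and 168 in control cells, that of the 2 endothelial ones 367 in miR-95 cells and 305 in control cells, and that of all 5 markers 478 in miR-95 cells and 512 in control cells, and their part in the differences below was not tested. These sums add readings of different probes, which are not comparable, so they give no share of other cell types.

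Among the 26 detected genes, 6 were higher in miR-95 cells by 1.2-fold or more, 1 was lower by as much, and 19 passed neither limit. Across all 7081 detected genes of the arrays, 5.48% were higher and 8.45% lower by that much. That balance follows the centring: with the values as deposited 7.09% were higher and 6.07% lower, and the members then counted 7 higher and 1 lower. At 1.5-fold, 1 of the 26 was higher and 0 were lower, where 0.395% of all detected genes were higher and 0.861% lower. The median difference of the 26 was 0.115, against -0.035 for all detected genes, and 34.6% of them had a negative difference, against 59.4% of all detected genes. As deposited, where the median over all detected genes is 0, these shares were 30.8% and 48.0% and the median of the 26 was 0.15. Their robust SD, from the median absolute deviation, was 0.23, against 0.148 for all detected genes. In RNA from a whole culture, fewer cells that express a gene and less RNA per cell cannot be told apart. With no filter on dim genes, 14 of the 87 were 1.2-fold higher or more (6.57% of all genes) and 6 lower (9.88% of all genes), and at 1.5-fold 2 were higher (0.426% of all genes) and 0 lower (0.923% of all genes), with a median of 0.055 over the 87 genes and -0.025 over all genes. Split by role, of the 18 detected genes that are proteases or their relatives 13 had a positive difference (median 0.115), and of the 8 detected inhibitors 4 were positive and 4 negative (median 0.015). These are counts over 2 arrays, and no test of the list was made.

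**Figure D1:**
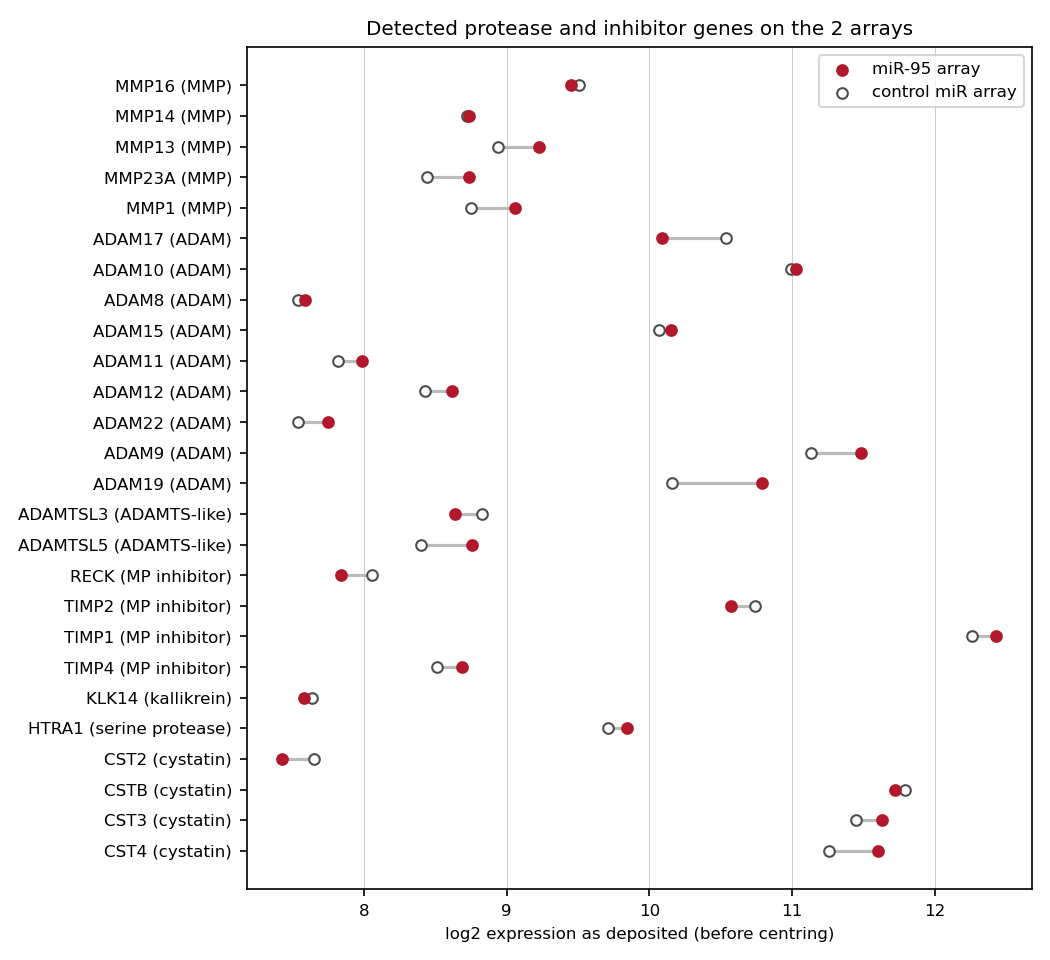
Log2 expression as deposited, before centring (x axis), of the 26 detected protease and inhibitor genes (y axis, with their class; MP, metalloproteinase) in miR-95 cells (filled) and in control cells (open). ADAM17 shows the widest gap to the left (10.09 in miR-95 cells, against 10.54 in control cells) and ADAM19 the widest to the right (10.79 in miR-95 cells, against 10.16 in control cells); levels of different genes are read by different probes and are not comparable.

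A yardstick for disagreement within an array came from genes read by more than 1 probe set. Over the 56 detected genes with exactly 2 probe sets, the differences given by the probe sets had an SD of 0.135 around their mean. It holds no variation between cultures. Of the 87 genes, 86 were read by 1 probe set and ADAMTS7P1, a pseudogene below detection, by several. Rounding to 2 decimals can move a difference by up to 0.01. For 4 detected genes near the 1.2-fold limit, 0.263 on the log2 scale, this rounding alone could decide the count. MMP23A (0.265) just passed it, and MMP13 (0.255), RECK (-0.255) and CST2 (-0.255) just fell short of it.

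ADAM genes encode membrane-anchored proteins with a metalloproteinase and a disintegrin domain, many of which shed the ectodomains of other membrane proteins. Of 22 measured, 9 were detected, and 8 of these 9 had a positive difference (median 0.135). Of all detected genes, 59.4% had a negative difference, or 48.0% with the values as deposited. The 8 include ADAM10 at 0.005, less than the 0.01 that rounding allows, and ADAM8 at 0.015. ADAM17, the main sheddase of tumour necrosis factor and of several epidermal growth factor receptor ligands, was the 1 with a negative difference, 1.40-fold lower in miR-95 cells. It read 10.09 in miR-95 cells, against 10.54 in control cells, a difference of -0.485, the 109th lowest of the 7081 detected genes. ADAM10, its closest relative, which cleaves Notch receptors and the amyloid precursor protein, read 11.03 in miR-95 cells, against 10.99 in control cells. Its difference after centring was 0.005. ADAM9, a sheddase that also binds integrins, read 11.48 in miR-95 cells, against 11.13 in control cells, 1.24-fold higher (difference 0.315). The 3 genes thus gave 3 different readings, lower for ADAM17, near 0 for ADAM10 and higher for ADAM9.

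Setting these genes against each other removes any shift common to the whole array. The difference of ADAM17 less that of ADAM10 was -0.49, and less that of ADAM9 it was -0.8. A gap subtracts 2 differences, for which the probe set spread is 0.191. That spread is the disagreement between probe sets of 1 gene, whatever its source, and neither gap has an error from separate cultures. Under the 6 other ways of scaling or summarising tried, the difference of ADAM17 ran from -0.48 to -0.44, that of ADAM10 from 0.0078 to 0.05 and that of ADAM9 from 0.312 to 0.36.

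ADAM19, known as meltrin beta and able to release neuregulin, was the detected gene of the list with the largest difference. It read 10.79 in miR-95 cells, against 10.16 in control cells, 1.51-fold higher (difference 0.595), the 26th highest of all detected genes. Its excess over the 1.5-fold limit of 0.585 is about the 0.01 that rounding allows. Every one of the 6 other ways of scaling or summarising gave a positive difference, and 1 of them, an offset added before log2, put it at 0.577, below 1.5-fold. ADAM12, meltrin alpha, read 8.62 in miR-95 cells, against 8.43 in control cells (difference 0.155), close to the size of the probe set spread.

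The remaining detected ADAM genes lay within 1.2-fold. ADAM15, a membrane ADAM with an integrin-binding motif, read 10.15 in miR-95 cells, against 10.07 in control cells (0.045 after centring). ADAM8, best known from leukocytes, differed by 0.015. ADAM11 and ADAM22, brain-enriched members without a working catalytic site, differed by 0.135 and 0.175. Thus the positive sign of the group rested on small values for most of its members. Without centring every difference is 0.035 higher, so the 8 positive values of the 9 had to stay positive. ADAM17 stayed negative, at -0.45. That count is therefore no separate check of the sign.

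**Figure D2:**
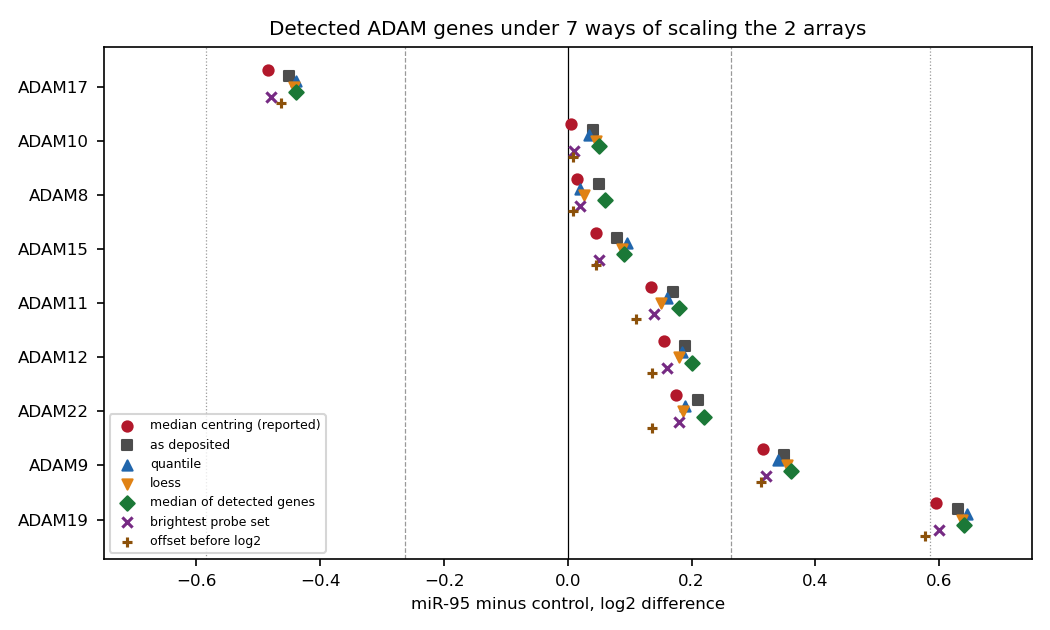
Log2 difference, miR-95 minus control (x axis), of the 9 detected ADAM genes (y axis) under median centring, the setting reported, and 6 alternatives (symbols). Dashed lines mark 1.2-fold and dotted lines 1.5-fold; ADAM17 stayed between -0.485 and -0.44, left of the lower 1.2-fold line, and ADAM9 between 0.312 and 0.36, right of the upper one, under the 7 settings drawn.

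The 13 ADAM genes below detection lay on both sides of 0. Among them are testis genes such as ADAM2, ADAM18 and ADAM30, and the pseudogenes ADAM3A, ADAM6 and ADAM21P1. Their differences ran from -0.345 for ADAM18 (4.17 in miR-95 cells, against 4.48 in control cells) to 0.865 for ADAM21, a testis ADAM. ADAM21 read 7.14 in miR-95 cells, against 6.24 in control cells, so the largest difference of any of the 87 genes came from a gene below the limit on both arrays. All genes of the arrays scattered more at such levels, with a robust SD of 0.193 below detection and 0.148 among detected genes.

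What surrounds ADAM10 and ADAM17 was read from further lists of genes. Of 15 regulators of these sheddases, 13 were measured and 9 detected, and 0 passed 1.2-fold either way (median 0.065). Of all detected genes, 5.48% were higher and 8.45% lower by that much, so few of 9 genes would pass at those shares. Of the 9, 6 had a positive and 3 a negative difference. The iRhom genes RHBDF1 and RHBDF2, whose products carry ADAM17 through its maturation, differed by 0.165 and 0.115 and are named here after their values were seen. FRMD8 and TSPAN5, also named after their values were seen, went the other way, at -0.165 each. TIMP3, which inhibits ADAM17 and other ADAMs as well as matrix metalloproteinases, was below detection (5.54 in miR-95 cells, against 5.35 in control cells).

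Of 38 reported substrates of ADAM10 or ADAM17, 29 were measured and 18 detected. At 1.2-fold, 4 were lower (22.2%), 1 was higher (5.56%) and 13 passed neither limit, with a median of -0.02. Of all detected genes, 8.45% were lower and 5.48% higher by that much, or 6.07% and 7.09% with the values as deposited. Whether the substrates differ from all detected genes was not tested. The lower genes were BTC, SDC4, IL6R and EFNA5. BTC, the growth factor betacellulin, read 7.12 in miR-95 cells, against 7.54 in control cells (-0.455), and it counted as detected through the control array alone. SDC4, the heparan sulfate proteoglycan syndecan-4, read 11.67 in miR-95 cells, against 12.03 in control cells (-0.395). IL6R, the interleukin-6 receptor, differed by -0.345 and the ephrin gene EFNA5 by -0.315. ICAM1, an adhesion molecule of leukocyte binding, was the higher one (11.29 in miR-95 cells, against 10.97 in control cells, difference 0.285). The arrays measure transcripts of these substrates and give no reading of shedding.

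Matrix metalloproteinases (MMPs) are the secreted or membrane-bound enzymes that break down collagens and other matrix proteins. Of 20 measured, 5 were detected, and 2 of these were at least 1.2-fold higher, 0 lower and 3 within the limits (median 0.255). The 2 higher were MMP1 and MMP23A, and MMP23A is a pseudogene. Of all detected genes, 5.48% were higher and 8.45% lower by that much. The detected collagenase genes MMP1 and MMP13 gave similar readings, while MMP8, a further collagenase gene, was below detection (difference 0.155). MMP1, the interstitial collagenase that opens fibrillar collagen, read 9.06 in miR-95 cells, against 8.75 in control cells, 1.21-fold higher (difference 0.275). MMP13, a collagenase best known from cartilage and bone, read 9.23 in miR-95 cells, against 8.94 in control cells, 1.19-fold higher (difference 0.255). Both values are about 2 probe set spreads. MMP13 passed 1.2-fold with the values as deposited, after quantile or loess normalization and with centring on detected genes (0.288 to 0.3), and with an offset neither MMP1 (0.249) nor MMP13 (0.234) did.

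The membrane-bound members MMP14 and MMP16 lay near 0. MMP14, which activates the gelatinase MMP2 at the cell surface, read 8.74 in miR-95 cells, against 8.72 in control cells (-0.015 after centring), and its sign turned in 4 of the 6 other scalings or summaries. MMP16, a membrane-type relative, read 9.45 in miR-95 cells, against 9.51 in control cells (-0.095). MMP23A, a transcribed pseudogene, read 8.74 in miR-95 cells, against 8.44 in control cells (0.265). Its near-identical copy MMP23B, below detection, read 7.07 in miR-95 cells, against 6.81 in control cells (0.225), and whether their probes share signal is not known here. MMP10 (stromelysin-2) read 3.62 in miR-95 cells, against 3.70 in control cells, and the lowest difference among the 15 MMP genes below detection was that of MMP24, at -0.415. No probe set used here named MMP2, MMP3, MMP7 or MMP9.

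**Figure D3:**
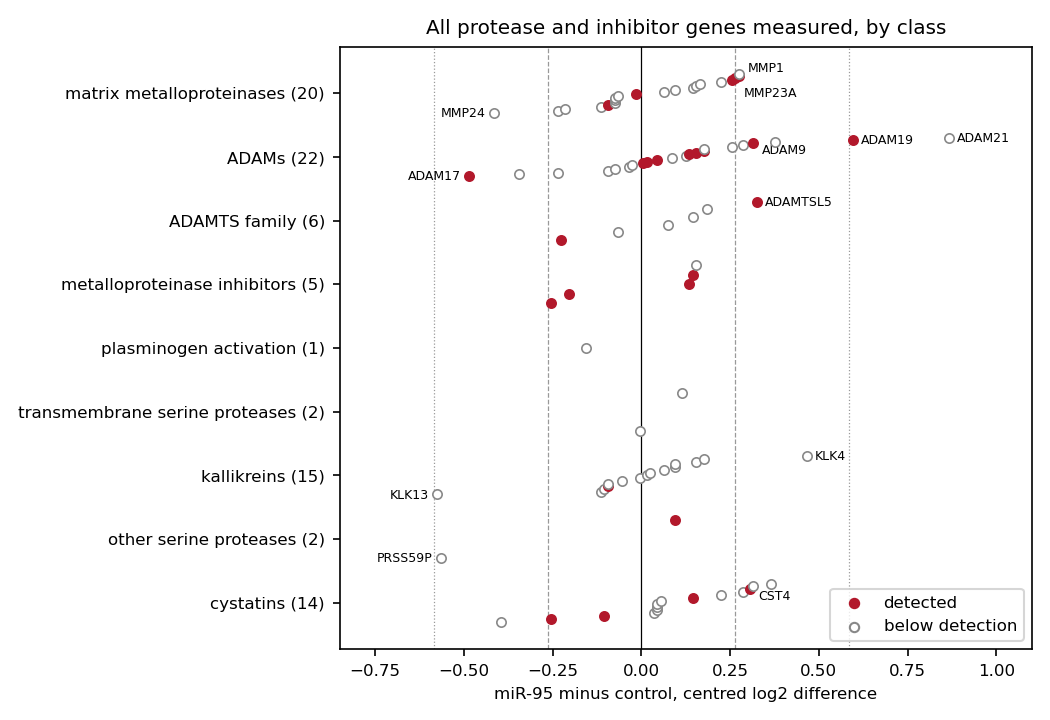
Centred log2 difference, miR-95 minus control (x axis), of all 87 genes by class (y axis, with the number measured); filled points were detected and open points were below detection. Within a class points are stacked by value; dashed lines mark 1.2-fold and dotted lines 1.5-fold. ADAM17 (-0.485) is the only filled point beyond the lower dashed line, and ADAM19 (0.595) the only filled point beyond a dotted line.

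The natural inhibitors of these enzymes went both ways. Of 5 measured, 4 were detected, 2 with negative and 2 with positive differences, and 0 passed 1.2-fold (median -0.035). Of all detected genes, 5.48% were higher and 8.45% lower by that much, and their median was also -0.035. RECK, a membrane-anchored inhibitor of several MMPs and of ADAM10, read 7.84 in miR-95 cells, against 8.06 in control cells, 1.19-fold lower (-0.255). TIMP2, which inhibits MMPs and also takes part in the activation of MMP2 by MMP14, read 10.57 in miR-95 cells, against 10.74 in control cells (-0.205). TIMP1, a secreted inhibitor of most MMPs and of ADAM10, read 12.43 in miR-95 cells, against 12.26 in control cells (0.135), and TIMP4 differed by 0.145. The signs of these 4 held under each of the other scalings and summaries.

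None of the ADAMTS symbols measured stands for a working protease. Of 6 measured, 5 are ADAMTS-like genes, whose products share the thrombospondin repeats but lack the catalytic domain, and 1 is the pseudogene ADAMTS7P1. ADAMTSL5, which binds fibrillin microfibrils, read 8.76 in miR-95 cells, against 8.40 in control cells, 1.25-fold higher (0.325). ADAMTSL3, a matrix glycoprotein, read 8.64 in miR-95 cells, against 8.83 in control cells (-0.225). The other 4 were below detection and ran from -0.065 to 0.185.

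Serine proteases were mostly below detection. Of 15 kallikrein genes measured, 1 was detected, KLK14, a trypsin-like member best known from skin, at 7.58 in miR-95 cells, against 7.64 in control cells (-0.095). KLK3, which encodes prostate-specific antigen, read 6.66 in miR-95 cells, against 6.53 in control cells, and KLK2 read 6.56 in miR-95 cells, against 6.62 in control cells. The extremes were dim genes, KLK4 at 0.465 (5.77 in miR-95 cells, against 5.27 in control cells) and KLK13 at -0.575 (5.25 in miR-95 cells, against 5.79 in control cells). HTRA1, a secreted serine protease of matrix proteins, was detected, at 9.84 in miR-95 cells, against 9.71 in control cells (0.095). The pseudogene PRSS59P was below detection and differed by -0.565.

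The membrane-anchored and plasmin systems were hardly represented. HPN (hepsin), a transmembrane protease raised in many prostate cancers, read 6.99 in miR-95 cells, against 6.96 in control cells. ST14 (matriptase), an epithelial protease that activates growth factor precursors, read 6.20 in miR-95 cells, against 6.05 in control cells. PLG, plasminogen, a liver product, read 5.05 in miR-95 cells, against 5.17 in control cells. These 3 genes were below detection on both arrays, and their differences (-0.005, 0.115 and -0.155) are of the size of the scatter at such levels. No probe set used here named PLAU, PLAUR, PLAT, a serpin, a TMPRSS gene, or a SPINT or SPINK inhibitor, and these were not analysed here.

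Cystatins gave 4 detected genes of 14 measured, with 1 at least 1.2-fold higher, 0 lower and 3 within the limits (median 0.02). Of all detected genes, 5.48% were higher and 8.45% lower by that much. CST4, the secreted cystatin S, read 11.60 in miR-95 cells, against 11.26 in control cells, 1.24-fold higher (0.305). CST3, the ubiquitous secreted cystatin C, read 11.63 in miR-95 cells, against 11.45 in control cells (0.145). CSTB, an intracellular inhibitor of cathepsins, read 11.72 in miR-95 cells, against 11.79 in control cells (-0.105). CST2, cystatin SA, went the other way from its relative CST4, at 7.43 in miR-95 cells, against 7.65 in control cells (-0.255). It was the 1 gene of the list that counted as detected through the control array alone. CST1, CST2 and CST4 are similar in sequence, and CST1 was far below detection on both arrays (3.71 in miR-95 cells, against 3.62 in control cells).

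Many of these genes lie side by side in the genome, and 4 such runs were read in chromosomal order. In the MMP run on chromosome 11, 7 of 9 genes were measured and 2 were detected, MMP1 and MMP13. Their neighbours in the run had differences of either sign, with MMP10 at -0.115 beside MMP1 and MMP12 at -0.215 beside MMP13, both below detection. In the ADAM run on chromosome 8, ADAM9 was detected and the other 4 measured genes were not. The kallikrein run on chromosome 19 held 15 measured genes, 8 positive and 7 negative, with a median of 0.015. In the cystatin run on chromosome 20, 10 genes were measured and 3 were detected, CST2, CST3 and CST4. Of the 10, 8 were positive and 2, the adjacent CST2 and CST5, negative, with a median of 0.05. The positive genes CST9L, CST13P, CST9 and CST1, all below detection, differed by only 0.035 to 0.055. Of all genes of the arrays, 56.9% had a negative difference, and no run was tested against that share. No run had the same sign throughout.

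**Figure D4:**
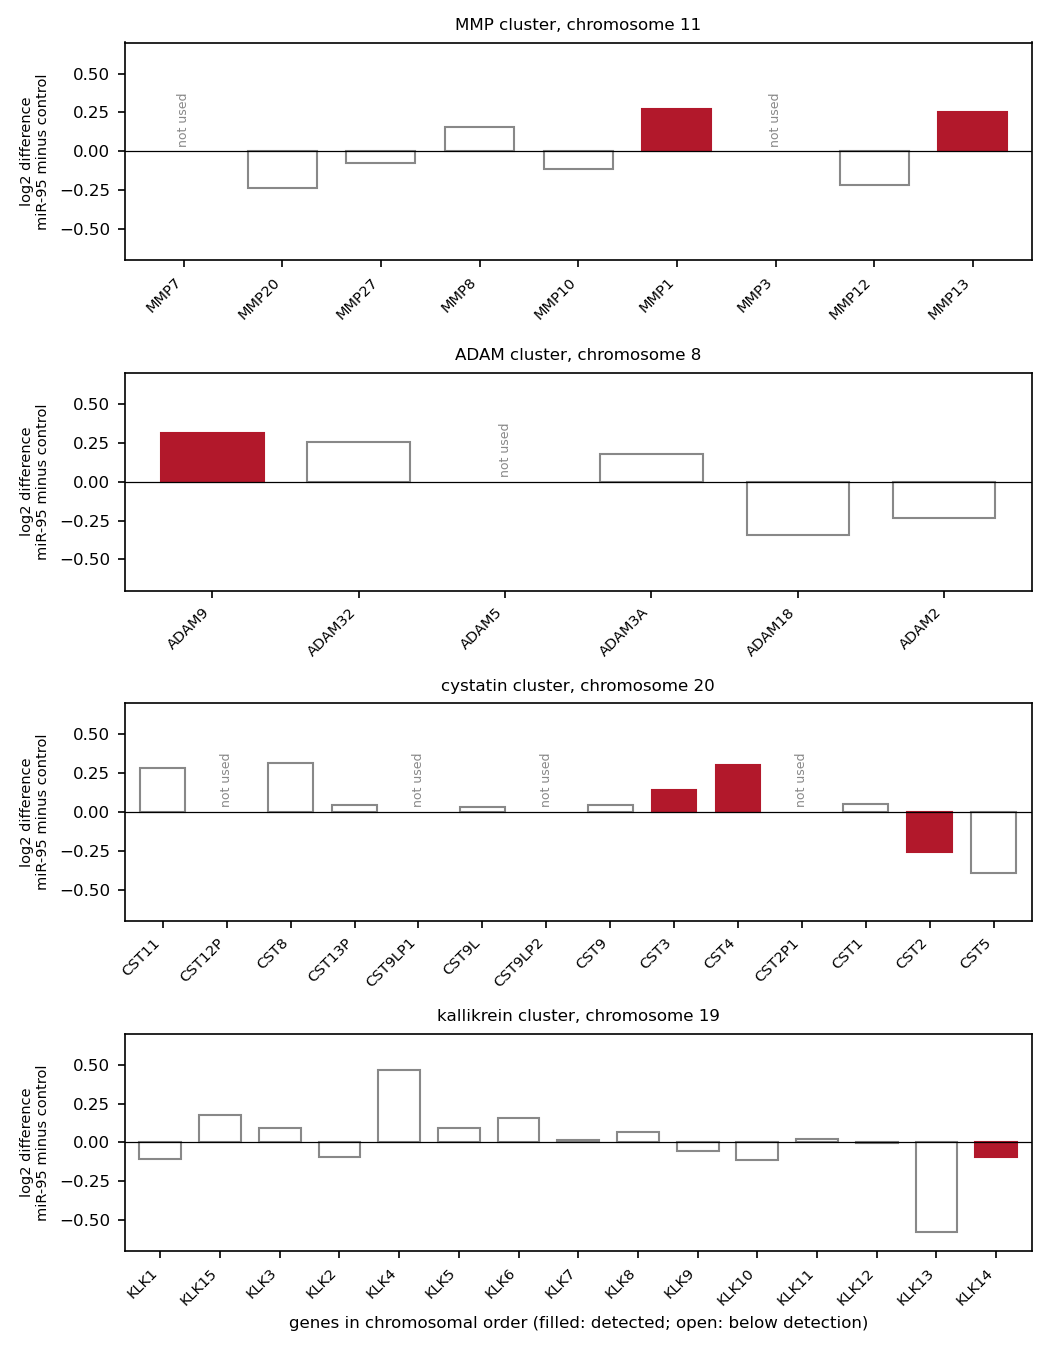
Centred log2 difference, miR-95 minus control (y axis), of neighbouring genes in 4 runs, placed in chromosomal order with no distances drawn (x axis). Filled bars were detected, open bars were below detection, and genes with no bar and the words "not used" had no probe set used here; every run holds bars of both signs.

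Other proteases and inhibitors outside the symbol rule mostly lay within 1.2-fold. So did most detected genes, of which 5.48% were higher and 8.45% lower by that much. Of 16 cathepsin and legumain genes, which encode mostly lysosomal proteases, among them the cysteine cathepsins that cystatins inhibit, all were measured, 9 were detected and 0 passed 1.2-fold (median -0.005). Of 9 proprotein convertases 5 were measured and 2 detected, and 0 passed it (median -0.115). Among 33 further surface, matrix and plasma genes 25 were measured and 10 detected, and 1 was at least 1.2-fold lower. This was HPSE, heparanase, which cuts heparan sulfate and is not a protease, at 8.34 in miR-95 cells, against 8.73 in control cells (-0.425).

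Among other inhibitors and coagulation regulators, 16 of 26 were measured and 5 detected (median 0.135). TFPI2, a Kunitz-type inhibitor of plasmin and trypsin, read 11.44 in miR-95 cells, against 11.02 in control cells, 1.31-fold higher (0.385), and was the 1 member past 1.2-fold. Of 15 partners of plasmin and pericellular proteolysis, 10 were measured and 7 detected (median 0.005). CD44, a hyaluronan receptor that docks MMPs at the cell surface, read 8.24 in miR-95 cells, against 8.53 in control cells, 1.25-fold lower (-0.325), and the other 6 lay within 1.2-fold.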

How the data were processed

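The authors deposited log2 expression values for 2 arrays, rounded to 2 decimals; per the submitters' processing notes they used Affymetrix Expression Console 1.2. The sources used here give no summarisation, background, scaling or filter step, and the log2 scale was read from the values. Platform annotation gave 1 gene symbol to 14088 of 23641 probe sets and several to 0; the other 9553 were not used. Probe sets were averaged per gene, arrays were centred on their medians over 13864 genes, and detection was set at the array median (Python 3.11.15, numpy 2.4.6, pandas 2.3.3). RefSeq GRCh38.p14 served for names, gene order and microRNA sequences. With 1 array per group no test was possible, and the number of arrays limits every value. Calls were counted at 1.2-fold and 1.5-fold.

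Genes named were those past 1.2-fold, the 2 extremes each way in each class, dim members past 0.4 and a fixed set of well-known members; others are named to account for the list. Members, lists and rule were chosen with earlier results of these data known. The steps were tested on simulated arrays with known 2-fold changes, counted at 1.5-fold. Changes as small as 1.2-fold were not simulated. The alternatives were other centrings (none, quantile, loess with span 0.4, detected genes), other detection limits, the brightest probe set and an offset of 50.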

Additional observations from a re-analysis of the deposited data

How the results depend on the processing

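The differences of ADAM17, ADAM10 and ADAM9 moved by less than the 0.135 probe set spread under each of the 6 other scalings or summaries. The gaps of ADAM17 to ADAM10 and to ADAM9 could not move as deposited, with centring on detected genes or with the brightest probe set. A shift common to all genes cancels in a gap, and each of these genes has 1 probe set. Under quantile, loess and the offset the gaps moved by less than 0.135. The median of the members counted ran from 0.055 to 0.16 over the 10 alternatives, and the 0.055 is over all 87 genes, with no filter. In the alternatives that counted 26 members it ran from 0.101 to 0.16. Counts depended on the filter. With no filter, 14 members were 1.2-fold higher, 6 were 1.2-fold lower and 2 were 1.5-fold higher. With detection at the 25th percentile, 9 were 1.2-fold higher (5.98% of all genes detected so), 2 were 1.2-fold lower (8.84%) and 2 were 1.5-fold higher (0.396%). With detection at the 75th percentile, 3 were 1.2-fold higher (4.94%) and 1 lower (8.45%), and with the offset 0 were 1.5-fold higher (0.226%). Across all detected genes, more were 1.2-fold higher than lower with the values as deposited, after quantile or loess normalization and with centring on detected genes (6.96% to 7.70% higher, 5.66% to 6.38% lower), the opposite of the reported centring. The filters change which genes are counted, and an offset shrinks differences by construction. MMP14, near 0, was the 1 detected member whose sign turned. No paired analysis was possible because each group holds 1 array.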
